A study of Oryctolagus cuniculus with 12 samples.

Results

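The set described here holds the genes of ion channels and ionotropic glutamate receptors in conjunctiva, the mucosa that forms the filtering bleb after glaucoma surgery. Its members were chosen by name, as KCN (potassium channels and their partners), SCN (sodium channels), CACNA, CACNB and CACNG (calcium channels), TRPC, TRPM and TRPV (transient receptor potential channels), CLCN (chloride channels and exchangers), GRIA, GRIK and GRIN (glutamate receptors) and PIEZO (mechanically gated channels). A member had at least 10 counts in at least 3 of the 12 libraries. Of 20566 genes in the table, 166 carried such a name, and 110 of these were members.

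The RNA came from female Japanese white rabbits. The control group (cont) was conjunctiva of left eyes without surgery (3 libraries). The other 9 libraries were bleb conjunctiva of right eyes after trabeculectomy, 3 taken at 3 hours (TL3h), 3 at 3 days (TL3d) and 3 at 14 days (TL14d). In trabeculectomy a drain is cut through the wall of the eye under a flap so that aqueous humor collects below the conjunctiva. All operated eyes had also received mitomycin C, which blocks cell division and limits scarring, a betamethasone injection below the conjunctiva, and an ointment with erythromycin and colistin, so the operation, the drugs and the change of eye cannot be told apart. Neither the time at which control tissue was taken nor the pairing of eyes within a rabbit is stated, and p-values measure the spread between these libraries.

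Ion channels let potassium, sodium, calcium or chloride pass the membrane along their gradients. Potassium channels set the resting voltage of epithelial, immune and muscle cells, and calcium-activated ones open when calcium inside the cell rises. In the conjunctiva, potassium and chloride channels take part in secretion of salt and fluid onto the eye, and channels in nerve endings respond to touch, cold and irritants. Many channels are complexes of a pore subunit and auxiliary subunits that change gating or transport to the membrane, and some subunits named here form no channel alone.

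Most members were low in abundance. The authors' FPKM (fragments divided by transcript length and library depth), which can be compared between genes, had a median over the members of 0.365 in cont, 0.282 in TL3h, 0.396 in TL3d and 0.383 in TL14d. Over all 14835 genes tested the same medians were 7.4, 5.27, 7.64 and 7.72. A group mean of at least 1 FPKM was reached by 35 members in cont, 31 in TL3h, 36 in TL3d and 40 in TL14d. In cont, 8 members reached 10 FPKM.

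The highest control level was that of TRPC4AP, which binds TRPC channels but forms no channel itself, at 53.2 ± 2.50 FPKM (mean ± SD, n = 3). CACNB3, the beta 3 subunit that carries calcium channel pores to the membrane, was at 25.2 ± 8.01 FPKM. Lower levels were those of CLCN3, a chloride and proton exchanger of endosomes, at 16.5 ± 2.91 FPKM, TRPM7, a magnesium-permeable channel with a kinase domain, at 13.9 ± 1.0, KCNJ2, an inward rectifier, at 12.4 ± 2.27, KCNE3 at 11.9 ± 4.91 and KCNQ1 at 11.9 ± 1.35. KCNQ1 and KCNE3 are the pore and the auxiliary subunit of an epithelial potassium channel. KCNK5, a K2P (tandem pore domain) potassium channel, had 9.10 ± 4.21 FPKM and CLCN6, a late endosomal exchanger, 8.65 ± 2.87. Below TRPC4AP, neighbours among the genes named here differed by less than the larger of their SDs, except for CACNB3 and CLCN3.

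The order differed between groups. KCNK1, another K2P channel, moved from the 11th place in cont (8.40 ± 3.32 FPKM) to the highest level of all members in TL3h (57.2 ± 21.0 FPKM). KCNN4 moved from place 19 (4.53 FPKM) to place 4 (25.1 ± 8.32 FPKM), and KCNE4 from place 32 (1.42 FPKM) to place 5 (21.9 ± 13.3 FPKM). TRPC4AP and TRPM7 stayed near their control levels, with fitted log2 changes of 0.16 ± 0.11 (SE) and 0.05 ± 0.16 at 3 hours and of 0.10 ± 0.10 and −0.03 ± 0.16 at 3 days.

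**Figure D1:**
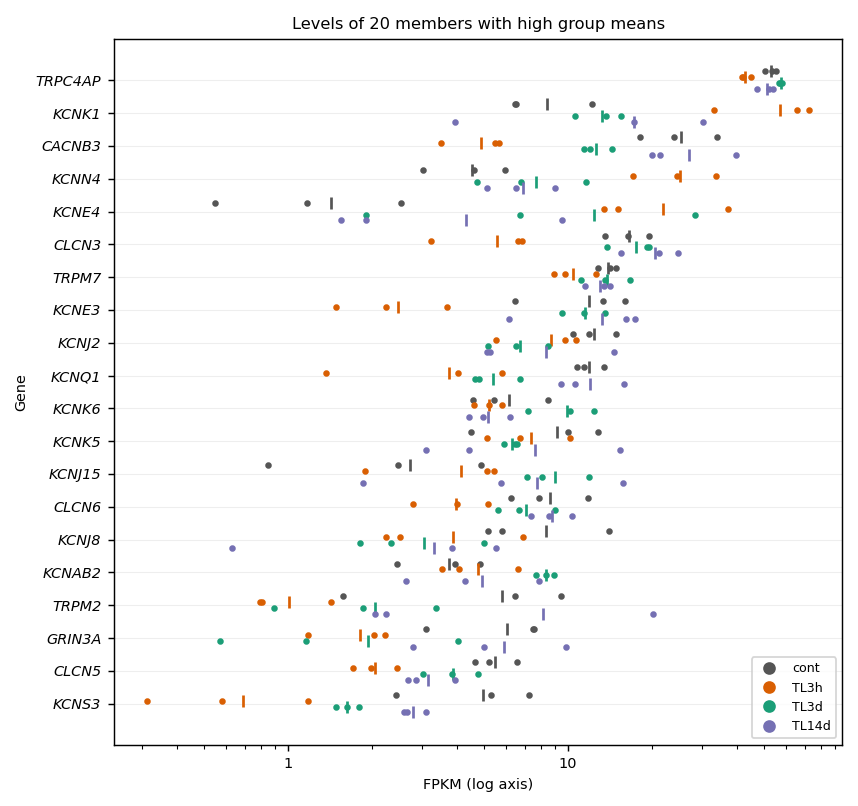
FPKM (log axis) of 20 members with high group means, 1 row per gene; dots are libraries and vertical bars group means (n = 3). KCNK1, KCNN4 and KCNE4 are highest in TL3h, while the TRPC4AP libraries stay between 41.7 and 58.1 FPKM in all groups.

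Members by role were 23 of 36 named genes for pores of voltage-gated potassium (Kv) channels, 20 of 35 for inward rectifier, K2P and calcium-activated potassium channels, and 14 of 17 for potassium channel auxiliary subunits and regulators. There were 8 of 11 sodium channel genes, 17 of 28 calcium channel genes, 13 of 18 TRP channel genes, 5 of 6 CLCN genes, 8 of 13 glutamate receptor genes, TRPC4AP, and PIEZO2. Among the 56 genes below the minimum, 7 had a count of 0 in every library: CACNA1I, CACNG3, CACNG8, KCNA10, KCNJ1, KCNK18 and KCNV2. Each count of 0 allows a level of up to 0.0712 to 0.124 CPM (counts scaled to library size, as adjusted by TMM), which is 3 counts. TRPV1, the capsaicin receptor of pain fibres, did not exceed 8 counts in any library, and SCN9A, a sodium channel of the same fibres, did not exceed 9. Of the 110 members, 108 passed the expression filter and were tested. KCNC1 and KCNK15 did not.

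Libraries differed in ways that touch single members. Total counts ranged from 27111276 to 38591374 and TMM factors from 0.77 to 1.13, lowest in TL3h. Skeletal muscle markers summed to 554 CPM in cont replicate 2 and 494 CPM in TL3d replicate 3, against 3.72 to 59.0 CPM in the other 10 libraries. The muscle channel genes CACNA1S, SCN4A and KCNJ11 were below the minimum because they were counted almost entirely in these libraries. CACNA1S had 187 and 101 counts there and at most 4 elsewhere, SCN4A had 59 and 64 and at most 8 elsewhere, and KCNJ11 had 21 and 13 and at most 3 elsewhere. TL14d replicate 1 stood apart from the other TL14d libraries, with log2 CPM correlations of 0.881 and 0.914, against 0.946 between replicates 2 and 3. Replicate 3 also stood apart in cont (0.931 and 0.945, against 0.969 between replicates 1 and 2) and in TL3d (0.924 and 0.954, against 0.975).

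Other tissue markers moved with the groups. Summed over 10 neutrophil genes, the 3 libraries held 38.8 to 197 CPM in cont, 1600 to 4020 in TL3h, 319 to 975 in TL3d and 49.8 to 2140 in TL14d, and 10 of 10 neutrophil genes rose at 3 hours and 3 at 3 days. MMP9 alone held 1990 of the 2140 CPM. Over 9 macrophage and monocyte genes the sums were 110 to 844 in cont, 782 to 1200 in TL3h, 1470 to 2330 in TL3d and 155 to 558 in TL14d, with 2 genes higher at 3 hours and 6 at 3 days. Over 10 fibroblast genes the sums were 12500 to 77900 in cont, 106000 to 128000 in TL3h, 1520 to 66100 in TL3d and 11500 to 58300 in TL14d, with no gene past the threshold. Over 12 conjunctival epithelium genes the sums were 5930 to 11400 in cont, 6850 to 11600 in TL3h, 7440 to 18800 in TL3d and 11200 to 15400 in TL14d, so the labelled tissue carried its markers in every library. Of these epithelial genes, 3 rose and 2 fell at 3 hours and 1 rose at 3 days. Of 10 endothelium genes 2 rose at 3 hours. In the lists for Schwann cells, neurons, melanocytes with iris and ciliary body, goblet cells, lymphocytes, adipocytes, cornea epithelium, gland, skeletal muscle and smooth muscle with pericytes, at most 2 genes changed in any comparison with cont. Fewer cells of a type and less RNA per cell cannot be told apart in these bulk samples, and the part of cell composition in the results below was not tested.

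At 3 hours after surgery, the potassium channels KCNN4, KCNN3, KCNK1 and KCNK13 and the auxiliary subunits KCNE4 and SCN3B were higher than in control eyes. KCNQ1 and KCNQ5, the auxiliary subunits KCNE3, KCNIP2 and CACNB3, and the endosomal exchangers CLCN3 and CLCN5 were lower. With a Benjamini-Hochberg adjusted p (q) of at most 0.05 in the edgeR fit, 24 of 108 members changed (22.2%), beside 45.4% of all genes. There were 11 higher members (10.2%, background 23.2%) and 13 lower members (12%, background 22.2%). The median log2 change was −0.22 over members and 0.02 over all genes. By mean level, the shares called were 8.11% of 37 members and 19.7% of all genes below 1 CPM, 24.0% of 50 members and 36.8% of all genes from 1 to 10 CPM, and 42.9% of 21 members and 53.0% of all genes from 10 CPM. The differences between these shares were not tested. Scaling by library size alone lowered the median change of all genes to −0.47 and turned the split of members to 8 higher and 23 lower. With DESeq2 size factors it was 9 and 16.

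KCNN4 encodes the intermediate-conductance calcium-activated potassium channel of epithelial and blood cells. It is annotated on unplaced sequence of OryCun2.0 (gene ID 100351872). Its control libraries had 11.2, 8.58 and 6.04 CPM and its TL3h libraries 89.3, 46.4 and 63.4 CPM. The groups did not overlap, and the lowest TL3h library was more than 4 times the highest control library. The rise was 7.71-fold (log2 2.95 ± 0.40 (SE), q = 0.0003), the smallest q among the members. KCNN3, a small-conductance relative (chromosome 13, 37740909 to 37947220), had 0.641, 2.05 and 1.93 CPM in cont and 11.3, 13 and 6.48 CPM in TL3h, a rise of 6.64-fold (q = 0.00319).

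KCNK1 (chromosome 16, 34452022 to 34495175) encodes TWIK-1, a weakly rectifying K2P channel. It had 6.27, 6.30 and 12.6 CPM in cont and 99.8, 46.8 and 87.9 CPM in TL3h, a rise of 9.30-fold (log2 3.22 ± 0.64, q = 0.00252). KCNK13, a K2P channel that halothane inhibits, rose from 0.332, 0.325 and 0.878 CPM to 4.88, 4.85 and 3.22 CPM (8.39-fold, q = 0.00733). KCNK7, which is not known to form a working channel alone, went the other way, from 3.37, 3.18 and 1.30 CPM to 1.04, 0.332 and 0.329 CPM (4.6-fold lower, q = 0.0108). Of the 19 tested inward rectifier, K2P and calcium-activated channels, 5 were higher (26.3%) and 1 lower (5.26%), with a median log2 change of 0.62. Beside this and the other counts by role at 3 hours stand 23.2% higher and 22.2% lower of all genes. Differences of the roles from these shares were not tested. The fifth increase was KCNJ14, an inward rectifier below 1 CPM (2.80-fold, q = 0.0336). Its call did not hold when any 1 of the cont or TL3h libraries or TL3d replicate 1 or 2 was left out, with library size alone or without a filter on low counts, and q reached 0.123 over the alternatives, with log2 changes from 1.0 to 1.57. KCNJ2 and KCNJ8, the vascular KATP pore subunit, had log2 changes of −0.04 ± 0.41 and −0.65 ± 0.77 at 3 hours.

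KCNE4 (chromosome 7, 164484091 to 164484675), an auxiliary subunit that inhibits KCNQ1 and some Kv channels, had the largest fitted increase. Its control libraries had 0.261, 0.550 and 1.28 CPM and its TL3h libraries 8.96, 25.5 and 9.91 CPM (21.2-fold, log2 4.40 ± 1.16, q = 0.0111). KCNE3 moved opposite, from 25.3, 21.0 and 10.9 CPM to 5.0, 3.40 and 8.12 CPM (3.46-fold lower, q = 0.0102). Its partner pore KCNQ1 had 19.4, 22.5 and 19.4 CPM in cont and 13.9, 3.36 and 9.44 CPM in TL3h (2.29-fold lower, q = 0.0415), and TL3h replicate 2 was the lowest library of both genes. Over all alternatives q of KCNQ1 reached 0.102 and the log2 change ran from −1.72 to −0.86. The call did not hold with only the 6 libraries compared, nor without cont replicate 1, 2 or 3, TL3h replicate 3, TL3d replicate 1 or 2, or TL14d replicate 3. In the same list KCNIP2, a calcium-binding partner of Kv4 channels, fell from 3.56, 4.10 and 1.78 CPM to 0.730, 0.539 and 0.512 CPM (5.27-fold lower, q = 0.00166). KCNIP3, of the same family and at most 0.655 CPM in any library, was at least 2.64-fold lower (q = 0.0288). Its call was lost without cont replicate 1 or TL3h replicate 1 or 3, among others (q at most 0.114). KCNMB3, a subunit of the large-conductance channel, was 2.15-fold lower (q = 0.0204) and lost its call without cont replicate 1 or TL3h replicate 3 (q at most 0.0836). In all, 1 of 14 auxiliary subunits was higher and 4 were lower.

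Among Kv pore subunits, 2 of 22 were higher and 3 lower, with a median log2 change of −0.70, or −0.52 with KCNH6, which had at most 3 counts in each TL3h library and a control mean below that floor, set at no change. KCND1, an A-type channel of the Kv4 family, rose in every TL3h library, from 1.61, 1.93 and 1.56 CPM to 4.77, 11.1 and 6.07 CPM (4.30-fold, log2 2.10 ± 0.31, q = 0.000533). KCNH4, a relative of the ether-a-go-go channel, rose from 0.380, 0.951 and 0.903 CPM to 4.07, 4.11 and 3.22 CPM (5.09-fold, q = 0.00306). The pore KCND1 rose and its partner KCNIP2 fell between the same groups, and a link between these changes was not tested. KCNQ5, a pore subunit of M-type current, fell from 9.75, 22.1 and 10.2 CPM to 4.34, 1.33 and 3.48 CPM (4.58-fold lower, q = 0.00388). KCNS3, a silent subunit that modifies Kv2 channels, fell from 8.21, 11.2 and 3.99 CPM to 2.58, 0.705 and 1.24 CPM (5.15-fold lower, q = 0.00293).

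In the sodium channel list SCN3B, the beta 3 subunit, was the only 1 of 8 tested genes past the threshold. It had 0.475, 2.05 and 4.51 CPM in cont and 21.6, 13.8 and 17.6 CPM in TL3h (7.52-fold, log2 2.91 ± 0.85, q = 0.0181). Without cont replicate 2 the log2 change was 2.82 and q 0.0634. Calcium channels had no increase and 2 decreases among 17. CACNB3 (chromosome 4, 33141662 to 33146488) fell from 84.8, 59.2 and 48.0 CPM to 20, 12.7 and 19.0 CPM (3.71-fold lower, log2 −1.89 ± 0.31, q = 0.000905). CACNA2D1, the alpha 2 delta subunit that binds gabapentin, fell from 11.8, 13.6 and 12.7 CPM to 4.69, 6.85 and 8.05 CPM (1.95-fold lower, q = 0.0281). Its q was at most 0.0775 in the alternatives and the call was lost without cont replicate 1 or 2 or TL3h replicate 1 or 2, with log2 changes from −1.05 to −0.82. CACNA1C, the L-type pore, had a log2 change of 0.05 ± 0.62 (q = 0.953), which turned to −0.41 with library size alone.

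All 5 CLCN genes had negative fitted changes at 3 hours, with a median of −0.96, and 2 passed the threshold. The change of CLCN1, a muscle channel, rested on cont replicate 2 (0.951 CPM, against 0 and 0.0251 CPM in the other controls). CLCN3 (chromosome 2, 47688704 to 47782623) fell from 109, 128 and 95.9 CPM to 64.3, 31.2 and 60.4 CPM (2.14-fold lower, log2 −1.09 ± 0.28, q = 0.00894). CLCN5, the exchanger mutated in Dent disease, fell from 56.0, 49.7 and 75.3 CPM to 25.8, 30.8 and 36.3 CPM (1.95-fold lower, q = 0.00826). The groups did not overlap for either gene.

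Of 13 TRP channels 2 were higher and 1 lower. TRPV3, a warmth-gated channel of keratinocytes, had 0.261, 0.0750 and 0.150 CPM in cont and 1.38, 0.415 and 1.24 CPM in TL3h (6.13-fold, q = 0.0479). TRPC1 rose from 14.9, 16.2 and 19.8 CPM to 25.1, 22.4 and 26.8 CPM (1.46-fold, q = 0.0427). These calls were at the edge of the threshold: q reached 0.150 for TRPV3, whose call was lost without any 1 of 10 of the 12 libraries, and 0.832 for TRPC1, whose log2 change was 0.05 when only library size was used. TRPV2, a channel of macrophages and other cells, fell from 4.84, 7.05 and 6.65 CPM to 3.11, 3.69 and 2.30 CPM (2.03-fold lower, q = 0.0175). Without cont replicate 2 its log2 change was −0.92 and without TL3h replicate 3 −0.91, and the call was lost in both cases (q at most 0.0603). TRPV4, an osmotically sensitive channel, had a log2 change of 0.32 ± 0.50, which turned to −0.16 with library size alone. TRPM8, the cold receptor, had −0.95 ± 0.67 and TRPC6, a diacylglycerol-gated channel, 2.12 ± 0.98, neither past the threshold.

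There were no significant changes among the 8 glutamate receptor genes at 3 hours. GRIN3A, an NMDA receptor subunit, had the smallest q of the list (log2 −1.28, q = 0.173). It passed the threshold when only the 6 libraries compared were used and in 1 other alternative (lowest q 0.028), and its reads cannot be told apart from those of PPP3R2 where the annotations overlap on the same strand. GRIK1, a kainate receptor subunit (chromosome 14, 159012382 to 159446919), ranged from 6.12 to 42.4 CPM in cont and from 4.96 to 47.7 CPM in TL3h. PIEZO2, the mechanically gated channel of touch receptors, had a log2 change of −0.04 ± 1.08 (q = 0.981), and its control libraries alone ran from 1.23 to 18.9 CPM.

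**Figure D2:**
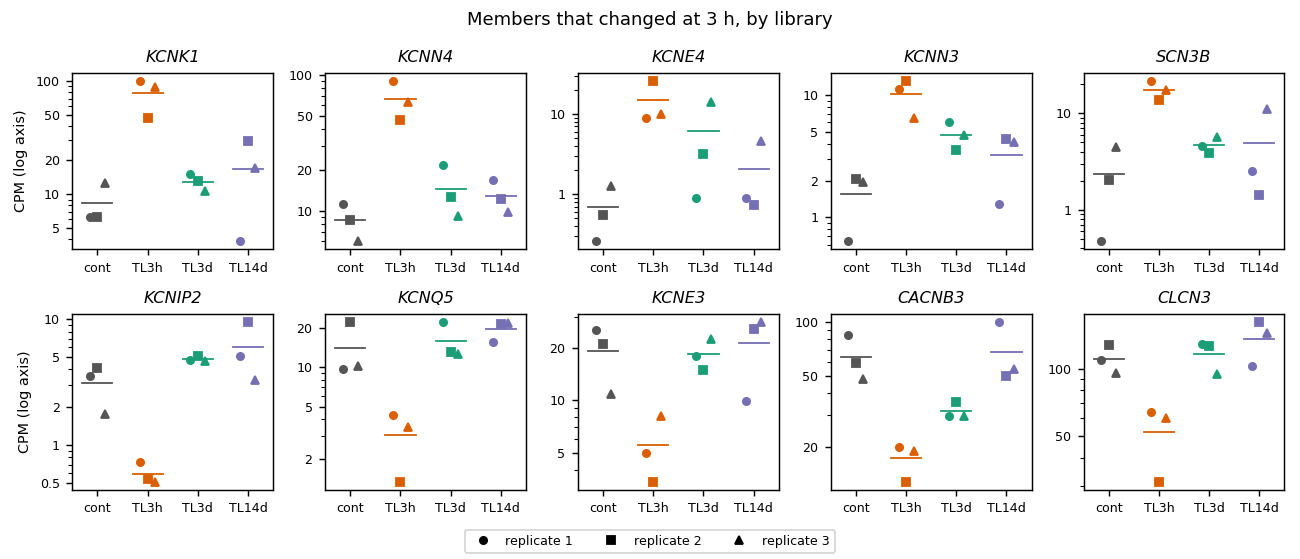
CPM (log axis) per library of 10 members that changed at 3 hours; symbols mark replicates 1 to 3 and lines the group means (n = 3). In the upper row the TL3h libraries lie above every control library, and in the lower row below every control library.

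Beside these changes stand the neutrophil sums given above, which were higher in every TL3h library (1600 CPM or more) than in every control library (197 CPM or less). The fibroblast sums were also higher in every TL3h library, as were the endothelium sums (674 to 1300 CPM, against 88.7 to 333 in cont), of which PECAM1 alone held 459 to 972 CPM in TL3h. The sums of 3 other lists also did not overlap but rested on 1 or a few genes. The cornea epithelium sums were higher through CLU (1550 to 2710 CPM, against 518 to 762), while the cornea keratin KRT3 was at 18.2 to 39.1 CPM, below its control libraries (53.5 to 82.9 CPM), and 1 gene of that list rose and 1 fell. The Schwann cell and nerve sums were lower through ERBB3 (69.0 to 173 CPM, against 338 to 778), and the skeletal muscle sums through NEB (4.8 to 8.93 CPM, against 18.3 to 107). Gene annotations of the members were long, with a median of 57.6 kb against 22.5 kb for all genes with the minimum count. Of all genes in the longest of 3 equal classes, 30.8% were lower and 15.1% higher at 3 hours, and of the 61 members in that class 11.5% were lower and 6.56% higher.

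At 3 days fewer members differed from control eyes. Higher members included KCNH2, KCNK3, KCNK13, GRIN2C, KCND1 and TRPV2, and GRIK1, GRIA1, TRPM3, CACNA2D3, CACNB4, CACNB3, KCNK7 and KCNS3 were lower. In all, 15 of 108 members changed (13.9%), beside 17.6% of all genes. The 7 higher members were 6.48% (background 10.6%) and the 8 lower ones 7.41% (background 7.0%). The median log2 change of the members was 0.03. The comparison at 3 days has the same control libraries as that at 3 hours.

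KCNH2 (chromosome 13, 12370887 to 12403836) encodes hERG, the delayed rectifier that repolarizes heart muscle. It had 0.0949, 0.175 and 0.226 CPM in cont, 0.154, 0.0830 and 0.0366 CPM in TL3h and 5.0, 3.54 and 1.37 CPM in TL3d. In TL14d it had 0.269, 0.706 and 0.260 CPM. The TL3d libraries thus lay above all 9 others. The rise over cont was 19.6-fold (log2 4.29 ± 0.69, q = 0.00993). The call held in every alternative tried, the sole 1 of the 15 for which this was so. KCNH2 became a member through the group in which it was high, with 200, 115 and 48 counts in the TL3d libraries. Outside TL3d only TL14d replicate 2, with 26 counts, reached the count minimum for members. Its place in the set was therefore not independent of this rise. KCNK3, the acid-sensitive K2P channel TASK-1 (chromosome 2), was at or below 3 counts in the control libraries and at 0.550, 0.893 and 2.50 CPM in TL3d, at least 17.8-fold higher (q = 0.0328). KCNK13 was also higher than in cont, with 2.15, 5.30 and 3.13 CPM (6.85-fold, q = 0.0315), as was KCND1, with 4.05, 3.20 and 3.61 CPM (2.13-fold, q = 0.0380). TRPV2, lower at 3 hours, was 2.06-fold higher at 3 days, with 12.1, 12 and 14.1 CPM (q = 0.0384).

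The glutamate receptor genes were low except for GRIK1, GRIK5, GRIA3 and GRIN3A, and 3 of the 8 changed at 3 days. This was 37.5%, beside 17.6% of all genes, and the difference was not tested. GRIN2C, an NMDA receptor subunit, rose from 0.356, 0.225 and 0.426 CPM to 1.80, 3.94 and 1.02 CPM (6.65-fold, log2 2.73 ± 0.63, q = 0.0206). GRIA1, an AMPA receptor subunit (chromosome 3), had 0.0949, 1.5 and 1.28 CPM in cont and at most 1 count in any TL3d library, at least 11.4-fold lower (q = 0.0236). Cont replicate 1 held only 4 counts of it. GRIK1 had 2, 3 and 2 counts in the TL3d libraries against 245 to 1690 in cont, at least 216-fold lower (q = 0.0394). GRIK1 also differed within TL14d, with 18.1 CPM in replicate 1, a count of 0 in replicate 2 and 0.391 CPM in replicate 3. GRIK5, a kainate subunit, and GRIA3, an AMPA subunit, were spread over the TL3d libraries, with 2.22, 4.65 and 10.6 CPM and with 0.150, 1.42 and 11.3 CPM, and had no significant change. In these genes TL3d replicate 3 was highest, as it was for the fibroblast sum (66100 CPM, against 1520 and 12200 in replicates 1 and 2). The part of this difference in their values was not tested. GRIN3A followed the same order, with 4.82, 9.70 and 35.6 CPM, and was 7.19-fold lower with q = 0.0277 when TL3d replicate 3 was left out.

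Calcium channel changes at 3 days were decreases of auxiliary subunits. CACNA2D3, an alpha 2 delta subunit (chromosome 9, 21074757 to 21951855), had 3.39, 1.5 and 1.76 CPM in cont and 0.450, 0.708 and 0.427 CPM in TL3d (4.18-fold lower, log2 −2.07 ± 0.45, q = 0.0181). It had 2.54, 1.29 and 2.41 CPM in TL3h. CACNB4 fell from 0.949, 1.73 and 0.903 CPM to 0.400, 0.339 and 0.626 CPM (2.61-fold lower, q = 0.0362). CACNB3 had 29.9, 35.8 and 29.6 CPM, between its TL3h and control levels (2.01-fold lower than cont, q = 0.0460). TRPM3, a heat- and steroid-gated channel (chromosome 1), fell from 1.83, 3.53 and 3.94 CPM to 0.400, 0.400 and 0.683 CPM (6.23-fold lower, log2 −2.64 ± 0.57, q = 0.0178). KCNK7 and KCNS3 were lower than in cont, 4.18-fold (q = 0.0358) and 3.05-fold (q = 0.0415). No CLCN gene and no potassium auxiliary subunit passed the threshold at 3 days. CLCN2, a plasma membrane chloride channel, was closest, at 1.83-fold lower (q = 0.0501, and past the threshold in 4 alternatives), while CLCN3 was near its control level (log2 0.07 ± 0.27). TRPV4 had 12.4, 12.8 and 7.23 CPM, each above the control libraries (3.89, 3.68 and 6.15 CPM), with a log2 change of 1.24 ± 0.50 (q = 0.105), which passed the threshold without TL14d replicate 1 and with only the 6 libraries compared (lowest q 0.0126). PIEZO2 had a log2 change of −0.52 ± 1.08 (q = 0.758).

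The number of members called at 3 days turned on single libraries. It was 3 without cont replicate 1, 2 without cont replicate 2, 1 without TL3d replicate 1, 1 without TL3d replicate 2, 9 without TL3d replicate 3, 10 without TL3h replicate 3 and 9 without TL14d replicate 3, and it rose to 23 without TL14d replicate 1. The share of all genes called moved likewise, from 17.6% to 2.37% without TL3d replicate 2 and to 25% without TL14d replicate 1. Apart from KCNH2, the largest q that the called members reached in any alternative lay between 0.0708 (CACNA2D3) and 0.153 (CACNB3), with no change of sign. Macrophage and monocyte sums were higher in each TL3d library (1470 CPM or more) than in each control library (844 CPM or less), and so were the neutrophil sums. In TL3d replicate 3, the lowest neutrophil sum of the group, MMP9 held 134 of 319 CPM, against 2.13 of 197 CPM in cont replicate 3. Sums for smooth muscle and pericytes (491 to 1610 CPM, against 307 to 406), endothelium (348 to 642 CPM) and cornea epithelium (1670 to 4110 CPM) were also higher in each TL3d library than in each control library. In the cornea list CLU (1270 to 3660 CPM, against 518 to 762) and KRT3 (289 to 317 CPM, against 53.5 to 82.9) were above all controls. PAX6 was below them (111 to 147 CPM, against 200 to 382), and KRT12 overlapped (1.15 to 5.32 CPM, against 0.677 to 4.68). No gene of the smooth muscle and pericyte or endothelium lists passed the threshold at 3 days, and 2 of the cornea list were higher. The gland sums were lower through AQP5 (253 to 397 CPM, against 400 to 1110), with no gland gene past the threshold.

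**Figure D3:**
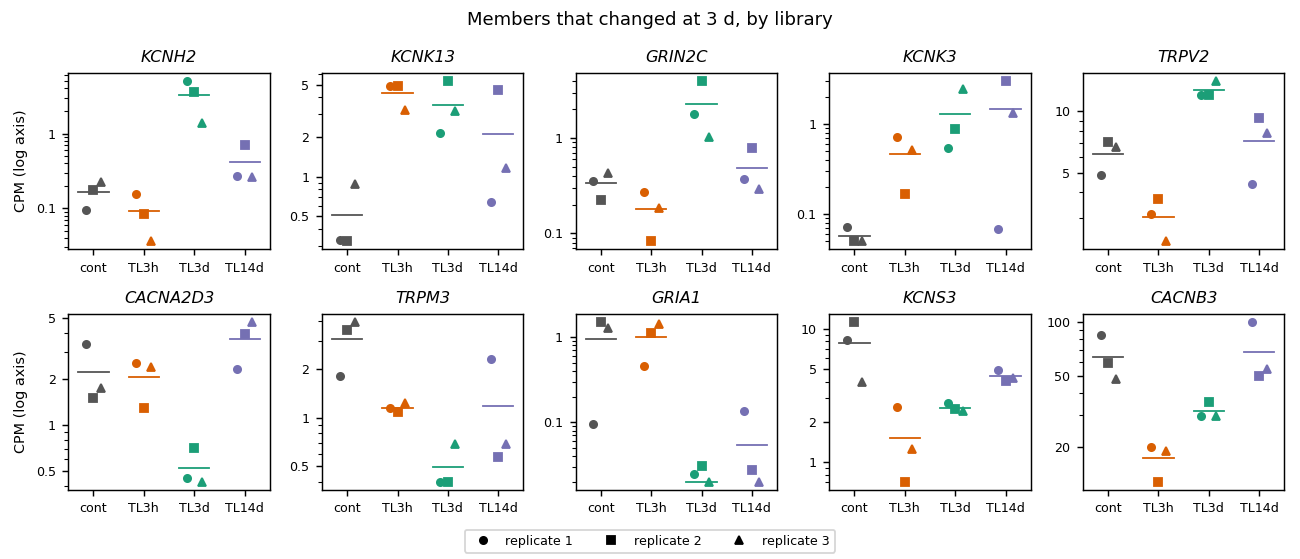
CPM (log axis) per library of 10 members that changed at 3 days; symbols mark replicates 1 to 3 and lines the group means (n = 3), and values below 0.02 CPM are drawn at 0.02. The TL3d libraries of KCNH2 lie above all others, and those of CACNA2D3 below all others.

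Between 3 hours and 3 days, 27 of 108 members differed (25%, background 37.3%). There were 15 higher at 3 days (background 18.4%) and 12 lower (background 19.0%). With library size alone the split was 25 higher and 7 lower, while the median of all genes shifted from −0.05 to 0.43. KCNN4 was 4.57-fold lower at 3 days than at 3 hours (q = 0.00171), with 21.8, 12.6 and 9.19 CPM in TL3d, and KCNK1 was 6.02-fold lower (q = 0.00875), with 15, 13.2 and 10.7 CPM. KCNIP2 was 8.15-fold higher (q = 0.000655), with 4.77, 5.14 and 4.70 CPM, KCNQ5 5.19-fold higher (q = 0.00338) and CLCN3 2.24-fold higher (q = 0.00836). KCNE3 had 18, 14.9 and 22.4 CPM in TL3d, 3.34-fold above TL3h (q = 0.0147), with q = 0.0523 when TL3h replicate 2 was left out. TRPV2 was 4.19-fold higher at 3 days than at 3 hours (q = 0.000637), with no overlap between any libraries of the groups. KCNE4 had no significant difference between these times: its TL3d libraries ran from 0.899 to 14.1 CPM. KCNQ1 had 8.12, 7.82 and 11.9 CPM in TL3d, a log2 change of 0.06 ± 0.42 from TL3h, and was 2.20-fold below cont with q = 0.0846, which passed the threshold in 3 alternatives (lowest q 0.0184).

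**Figure D4:**
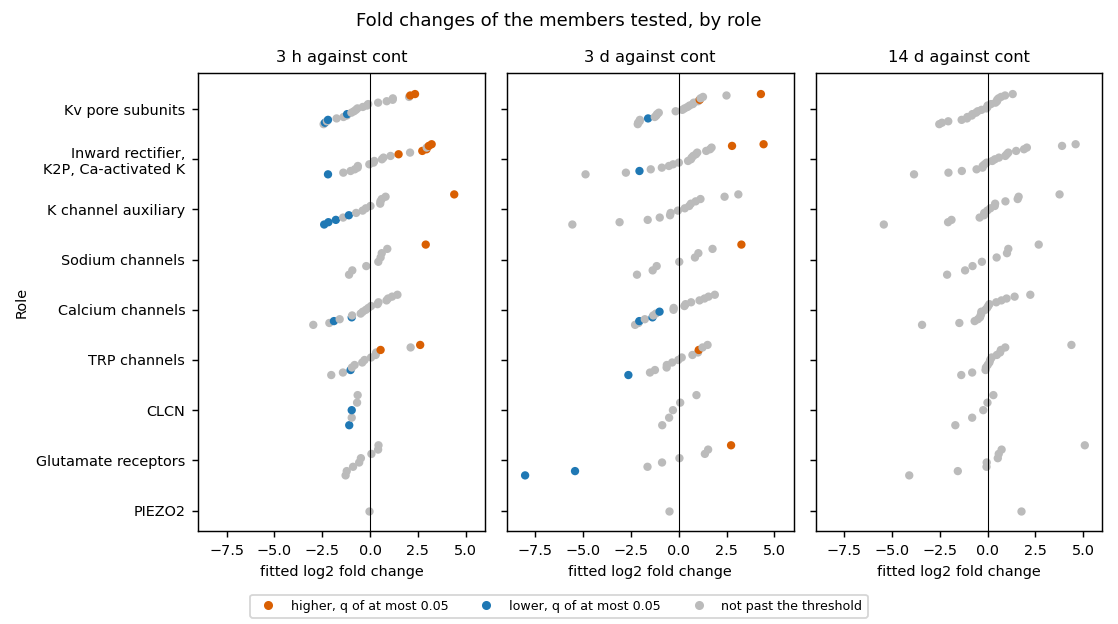
Fitted log2 fold change against cont of the 108 tested members by role after 3 hours, after 3 days and after 14 days (TRPC4AP is not drawn); each dot is a gene, coloured where q is at most 0.05. Calls go from 11 higher and 13 lower at 3 hours to 7 and 8 at 3 days and 0 at 14 days.

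At 14 days there were no significant differences from control eyes in the edgeR fit, for members or for all genes (0.0% called). An unadjusted p below 0.05 was seen for 17 of 108 members (15.7%) and 10.4% of all genes. The DESeq2 test called 6 members, beside 2.47% of all genes. Libraries of TL14d and cont did not overlap for 3 members that were higher and 5 that were lower, together 8 of 108, beside 11.1% of all genes. Members with no overlap and a mean of at least 1 CPM included KCND1 on the higher side and KCNJ3, SCN7A, CLCN5 and CACNB4 on the lower side. KCND1 had 2.42, 2.58 and 2.21 CPM against 1.61, 1.93 and 1.56 CPM in cont (log2 0.50 ± 0.31, q = 0.591), and CLCN5 had 42.9, 28.7 and 31.5 CPM against 56.0, 49.7 and 75.3 CPM (log2 −0.81 ± 0.24, q = 0.346). CACNB4 had a log2 change of −0.51. SCN7A, a sodium-sensing channel of glia, had −2.12 ± 1.44, and KCNJ3, an inward rectifier gated by G proteins, −3.85 ± 1.5, mainly through cont replicate 3 (9.11 CPM, against 0.498 and 0.825 CPM). For these genes the groups were barely apart. The highest TL14d and the lowest control library had 1.48 and 1.5 CPM for SCN7A and 0.488 and 0.498 CPM for KCNJ3.

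TL14d replicates 2 and 3 carried high levels of several members that replicate 1 did not. KCNMA1 (chromosome 18, 10127405 to 10672476), the pore of the large-conductance calcium-activated potassium channel, had 0.572, 11.1 and 25.1 CPM in the TL14d libraries, while the 9 libraries of other groups had 0.290 to 1.88 CPM. Its subunit KCNMB1, known from smooth muscle, had 0.235, 3.59 and 6.74 CPM, and KCNMB4 0.908, 3.61 and 5.08 CPM. GRIN2B, an NMDA receptor subunit, had 0.134, 2.42 and 13.8 CPM, and PIEZO2 (chromosome 9, 50740457 to 51194003) 2.76, 37.8 and 36.7 CPM. KCNK3 had 0.0672, 3.02 and 1.33 CPM. These genes were singled out after their values were seen. Their log2 changes over 3 libraries were 3.89 ± 1.05 for KCNMA1 (q = 0.346), 3.76 ± 1.25 for KCNMB1 (q = 0.388), 1.62 ± 0.66 for KCNMB4 (q = 0.443), 5.08 ± 1.68 for GRIN2B (q = 0.388) and 1.74 ± 1.10 for PIEZO2 (q = 0.608).

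Without TL14d replicate 1, 6 members passed the threshold, beside 4.74% of all genes. They included KCNK3, at least 29.5-fold higher (q = 0.0159), KCNMA1, with a log2 change of 4.45 ± 0.63 (q = 0.0105), and CACNA1E, at least 6.47-fold higher (q = 0.0257). KCNK3 and CACNA1E had at most 3 counts in each control library. CACNA1E_dup1 and CACNA1E_dup2, separate rows for split loci of CACNA1E, had 5, 18 and 53 and 1, 1 and 15 counts in cont. Neither row was among the 6 members. TRPM3 was lower, with a log2 change of −2.30 ± 0.44 (q = 0.0247). The 6 members of the DESeq2 test on all libraries included KCNMA1, KCNK3, GRIN2B and KCNMB1 (higher) and GRIA1 (lower). The sum of 9 smooth muscle and pericyte genes was 334, 1160 and 1390 CPM in TL14d replicates 1, 2 and 3, and 307 to 406 CPM in cont. NOTCH3 alone held 300, 508 and 331 CPM of the TL14d sums and 146 to 323 CPM of the control sums. The sums of other lists were split likewise between the replicates, with replicate 1 within the control range: 49.8, 2140 and 222 CPM for neutrophils, and 1120, 3070 and 1580 CPM for cornea epithelium. MMP9 alone held 0.235, 1990 and 94.3 CPM of these neutrophil sums. Macrophage and monocyte sums were 155, 558 and 348 CPM, all within the control range, and those of melanocytes, iris and ciliary body were 36.8, 195 and 26.1 CPM, highest in replicate 2. The smooth muscle and pericyte sum was also 1610 CPM in TL3d replicate 3. There KCNMA1 had 1.88 CPM, KCNMB1 3.16, KCNMB4 1.99, KCNK3 2.50, GRIN2B 1.17 and PIEZO2 9.93 CPM, each above TL3d replicates 1 and 2. Within the list, TAGLN had 3.19, 452 and 578 CPM in TL14d (2.99 to 15.5 CPM in cont) and ACTA2 5.14, 142 and 352 CPM (6.19 to 17.9 CPM in cont). MYH11, the smooth muscle myosin, had 2.76, 6.03 and 14.6 CPM, within its control range of 3.23 to 15.9 CPM for replicates 2 and 3. RGS5 had 13.5, 22.1 and 62.3 CPM, all within its control range of 12.3 to 82.1 CPM. None of the 9 genes was at or under the floor in all libraries of a group, and the part of muscle cells or of other cells in these levels was not tested.

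**Figure D5:**
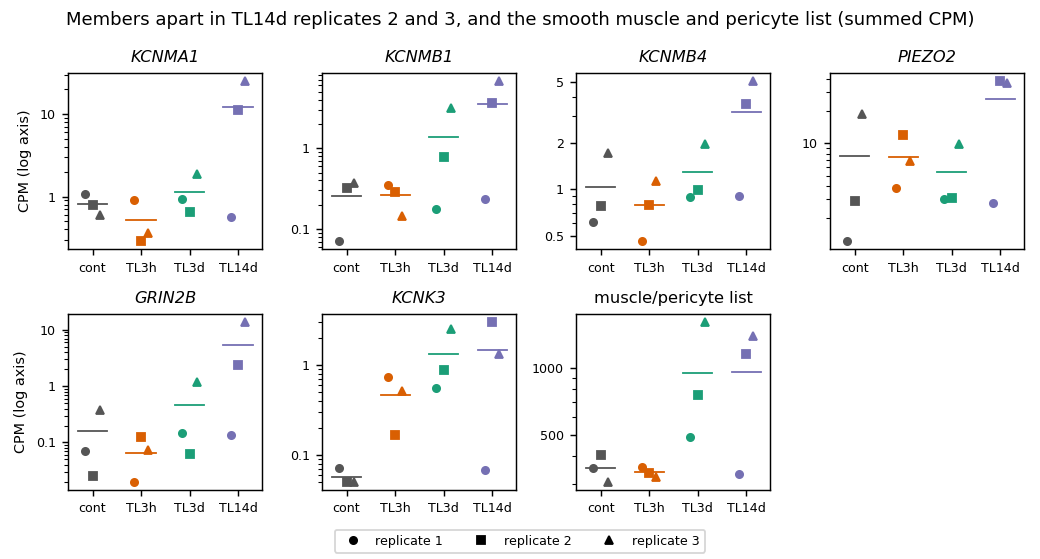
CPM (log axis) per library of 6 members and of the summed smooth muscle and pericyte list; symbols mark replicates 1 to 3 and lines the group means (n = 3), and values below 0.02 CPM are drawn at 0.02. TL14d replicates 2 and 3 lie above replicate 1 in every panel, by 0.572 against 11.1 and 25.1 CPM for KCNMA1.

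Members that changed earlier had no significant difference from cont at 14 days. KCNN4 had 16.9, 12.2 and 9.86 CPM (log2 0.59 ± 0.37), KCNK1 3.87, 29.3 and 17.1 CPM (1.0 ± 0.59), CLCN3 103, 162 and 144 CPM (0.30 ± 0.27) and CACNB3 100, 49.9 and 54.4 CPM. KCNQ1 had a mean of 20.4 ± 5.93 CPM beside 20.4 ± 1.80 CPM in cont. KCNJ8 had log2 −1.35 ± 0.78, TRPV4 0.69 ± 0.50, TRPM8 0.65 ± 0.64, CACNA1C −0.12 ± 0.62 and GRIK1 −1.56 ± 1.58. TRPC6 had a mean of 0.324 CPM in both groups. Between 3 and 14 days, 2 members differed (1.85%, background 2.24%). CACNA2D3 was 6.90-fold higher at 14 days (q = 0.0260), with 2.32, 3.94 and 4.72 CPM, and KCNH2 was 7.90-fold lower (q = 0.0472). CACNA2D3 lost its call without any 1 of the TL3d libraries or TL14d replicate 3 and with only the 6 libraries compared (log2 2.56 to 3.05, q at most 0.116). KCNH2 lost it without any 1 of 10 libraries and in 3 other alternatives (log2 −3.62 to −2.55 over all alternatives, q at most 0.164).

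Other genes of the same pathways were counted from lists that held no member. Their counts stand beside the shares of all genes given above, 23.2% higher and 22.2% lower at 3 hours and 10.6% and 7.0% at 3 days, and differences from these shares were not tested. Of 21 tested genes for calcium stores, entry and extrusion, 1 rose and 3 fell at 3 hours. STIM1 and STIM2, the calcium sensors of the endoplasmic reticulum that open ORAI channels, fell by 1.16 ± 0.22 (q = 0.00217) and 1.10 ± 0.25 (q = 0.00540) on the log2 scale, and ATP2A2, a pump that fills the stores, rose by 0.98 ± 0.24 (q = 0.00682). At 3 days 2 rose, and these were the entry channels ORAI2 (2.32 ± 0.69, q = 0.0448) and ORAI3 (0.60 ± 0.18, q = 0.0490). Of 23 other cation channels, 6 fell at 3 hours. They included TPCN1 of endosomes and lysosomes, from 88.6 ± 12.4 to 13.6 ± 5.11 CPM (q = 0.00016), and the ATP receptor P2RX7, from 72.4 ± 22.7 to 10.1 ± 2.53 CPM (q = 0.000353). At 3 days P2RX7 was at 83.1 ± 44.7 CPM, and 2 genes of the list rose, P2RX1 and MCOLN1.

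Of 19 other chloride channels, 5 rose and 5 fell at 3 hours. The volume-regulated channel subunits LRRC8A and LRRC8C rose from 42.5 ± 21.0 to 205 ± 47.0 CPM (q = 0.000485) and from 20.6 ± 4.90 to 120 ± 22.4 CPM (q = 0.000742), while ANO2, a calcium-activated chloride channel, fell from 5.38 ± 2.25 to 0.369 ± 0.141 CPM (q = 0.000675). At 3 days ANO3 alone was past the threshold (log2 −2.94, q = 0.0353). Of 28 glutamate signalling partners, 7 rose and 5 fell at 3 hours, and 3 rose and 4 fell at 3 days. The transporters SLC1A1 and SLC1A5 rose from 70.2 ± 30.3 to 303 ± 106 CPM (q = 0.00311) and from 33.5 ± 2.03 to 149 ± 22.0 CPM (q = 0.000308), and DLG2, a scaffold of glutamate receptors, fell from 84.5 ± 42.9 to 7.51 ± 3.51 CPM (q = 0.00108). Of 8 sodium pump genes, 3 rose at 3 hours and 1, FXYD5, at 3 days. There were no significant changes in any of these lists at 14 days.

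The transcript table gave 155 tested transcripts of 107 member genes. At 3 hours 18 changed (11.6%, background 28.3%), 9 higher and 9 lower. At 3 days 2 changed, those of KCNH2 and CACNA2D3 (1.29%, background 5.13%), and at 14 days 0 (background 0.0%). Of 29 genes with more than 1 tested transcript, KCNN3 had 2 that rose at 3 hours, with log2 changes of 3.58 ± 1.04 (q = 0.0265) and 1.64 ± 0.43 (q = 0.0181). CLCN3, KCNE3, SCN3B and TRPV2 each had 1 transcript past the threshold, of 6, 2, 3 and 2 tested, and no gene had transcripts past it in opposite directions. Reads shared by transcripts were divided in the authors' estimated counts, so these values are less certain than those of the genes.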

How the data were processed

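Poly(A) RNA of 12 conjunctiva libraries was sequenced from stranded libraries as 150 bp paired-end reads. The authors mapped the reads to OryCun2.0 with STAR 2.6.0c and made values per gene and transcript with GeneData Profiler Genome. The deposited estimated counts were not scaled (23.4% of gene values and 55.4% of transcript values were fractions) and were rounded here. The deposited FPKM values, divided by the authors by length and depth, were used only to compare levels between genes. The MicroShunt libraries were not analysed here.

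Genes passing filterByExpr in edgeR 4.0.16 (R 4.3.3) were normalized by TMM and entered 1 quasi-likelihood fit of all 12 libraries without covariates, and q is the p-value after Benjamini-Hochberg adjustment over all genes tested (threshold 0.05). The plan named counts, and its test was kept for the estimated counts. The SE is the log2 fold change divided by the square root of F. A group with at most 3 counts in each library was set at the floor of 3 counts per library, and its fold change is a bound that covers counting error only. The scripts were tested on simulated data. Pairs of libraries within a group were checked for copies, and none was found.

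Named were members past the threshold with no overlap between groups and a mean of at least 1 CPM (10 in each direction at 3 hours and 3 days, and without the threshold 5 in each direction at 14 days), the member of smallest p per family, the 10 of highest control FPKM, and a list of sensory, vascular and epithelial channels. Other called members, and at 14 days those called in 1 alternative and KCNMB4, were added after their values were seen. Some genes that these rules name are not reported here. The members and lists were chosen with earlier results of these data known. Alternatives were DESeq2 1.42.0 size factors and test, library size alone, limma 3.58.1 on log2 CPM (prior count 2), 2 other filters, only the 6 libraries compared, the replicate number as a block, and leaving out each library. Gene IDs and positions are those of the authors' table, and positions on unplaced sequence refer to a joined sequence. CACNA1A and CACNA1E also had separate rows for split loci.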

Additional observations from a re-analysis of the deposited data

Results flagged for a closer look

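The effects at 3 hours and 3 days have the same control libraries, and they were compared by testing TL3d against TL3h in the same fit. The effect of 17 of the genes named differed between these times (q of at most 0.05 in the edgeR fit). The log2 differences, TL3d minus TL3h, were positive for KCNH2 (5.13), GRIN2C (3.62), KCNIP3 (3.06), KCNIP2 (3.03), KCNQ5 (2.38), TRPV2 (2.07), KCNE3 (1.74), CLCN3 (1.17) and CACNB3 (0.88). They were negative for GRIK1 (−8.46), GRIA1 (−5.50), KCNK1 (−2.59), KCNN4 (−2.19), CACNA2D3 (−1.97), CACNB4 (−1.82), KCND1 (−1.01) and TRPC1 (−0.90). For KCNH2 and GRIN2C the values lay near the floor of 3 counts in the TL3h libraries, so these sizes are uncertain. KCNIP3 had at most 3 counts in each TL3h library, and GRIK1 and GRIA1 in each TL3d library, so their fitted values are no bounds. Set against the floor, KCNIP3 was at least 4.9-fold higher at 3 days, and GRIK1 and GRIA1 were at least 289-fold and 11.9-fold lower. The call of CACNB3 was lost without cont replicate 2 or any 1 of the TL3h and TL3d libraries (log2 0.74 to 1.36 over all alternatives). Those of GRIK1 and KCND1 were lost without any 1 of the TL3d libraries, that of KCND1 also without TL3h replicate 2, with library size alone and with only the 6 libraries compared (q at most 0.189, log2 −1.21 to −0.53), and that of KCNE3 without TL3h replicate 2. That of TRPC1 was lost with library size alone (log2 −0.43, q = 0.0821).

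The effects at 14 days and 3 days were compared in the same way. They differed for CACNA2D3 (log2 2.79, higher at 14 days) and KCNH2 (−2.98, lower at 14 days), and these calls rest on single libraries as given above. Groups of 3 libraries are too small for a test of outlying samples.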

How the results depend on the processing

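At 3 hours the count of called members (24) stayed within 1.5 times under every alternative, as did that for TL3d against TL3h (27). At 3 days it was 15 and became 25 with the DESeq2 test (30.1% of all genes, against 17.6%) and 1 to 23 when a library was left out. At 14 days it was 0 and became 6 with the DESeq2 test (2.47% of all genes) and 0 to 6 when a library was left out (6 without TL14d replicate 1). For TL14d against TL3d it was 2 and became 10 with the DESeq2 test (12.5% of all genes, against 2.24%), 1 without a filter on low counts, 0 with only the 6 libraries compared, and 0 to 3 when a library was left out. Transcript calls without TL14d replicate 1 were 13 at 3 days, against 2, and 2 at 14 days, against 0. The share of all transcripts called in that alternative is not given, so these counts do not set the members apart. The causes were not tested.

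With the replicate number as a block the counts were 25, 19, 0, 33 and 1 for the 5 comparisons (in the order 3 hours, 3 days and 14 days against cont, TL3d against TL3h, and TL14d against TL3d). The shares of all genes called were 46.8%, 18.3%, 0.0%, 39.3% and 1.94% in the same order. Over 18 same-numbered pairs the correlations of deviations were −0.15 to 0.48, with 8 above 0.1, and 7 of 12 libraries correlated best with their own number, which is a hint of pairing from the data and not from the design. With the block, KCNIP3 and TRPV3 at 3 hours, GRIK1 at 3 days and KCNH2 between 3 and 14 days were among the calls lost, and GRIN3A and TRPC6 at 3 hours and KCNN4 at 3 days were among those gained.

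Signs turned only in named changes that were not past the threshold. With library size alone the log2 change at 3 hours was −0.41 for CACNA1C, −0.03 for GRIK1 and −0.16 for TRPV4. At 14 days KCNQ1 (0.00) had −0.01 with DESeq2 size factors, with library size and with the DESeq2 test, −0.03 with limma, 0.00 without a filter and −0.07 with the block. CACNA1C at 14 days had 0.13 with limma and 0.04 with the block. PIEZO2 had 0.71 and 0.67 at 3 hours and 0.14 and 0.05 at 3 days, with limma and with the block. TRPC6 at 14 days had 0.01 with only the 6 libraries compared. When 1 library was left out, the changes ran from −0.57 to 1.81 for PIEZO2 in TL3h and −1.32 to 1.36 in TL3d, −0.36 to 1.05 for CACNA1C in TL3h and −0.66 to 0.91 in TL14d, and −0.04 to 1.23 for TRPC6 in TL3d and −1.46 to 0.53 in TL14d. They ran from −0.06 to 0.76 for KCNMA1 in TL3d, −0.26 to 0.15 for KCNQ1 in TL14d, −0.04 to 0.20 for CLCN3 in TL3d, −0.56 to 1.94 for GRIK1 in TL3h and −0.69 to 0.10 for SCN7A in TL3h.

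Of 24 named calls at 3 hours, 15 held under every alternative, and of 15 at 3 days, 1 did. Low counts limit many members, since 54 of 110 were below 10 counts in at least 1 library.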
